A study of Mus musculus with 18 samples.

Results

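Transcripts of 37 genes of glycolysis and of the response to low oxygen were compared in mouse mammary organoids grown in 3 media. The genes were chosen by name, with earlier results of these data known: glycolytic enzymes, and well-known targets of the hypoxia-inducible factors (HIFs). Shares of members set beside those of all genes are therefore a description and not an independent test of the list. All 37 symbols were found in the deposited gene table. They made 38 of its 55536 gene records, because Aldoa has 2 records, and all 38 were among the 17092 records that passed the filter on low counts.

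The organoids came from mammary glands of C57BL/6 mice aged 6 to 7 weeks, either wild type (WT) or RasGRP1-/- (KO). RasGRP1 is an exchange factor that loads Ras with GTP. All cultures were plated in matrigel, a gel of basement membrane proteins. Their base medium was DMEM/F12 with an insulin-transferrin-selenium supplement, and the factors were given for 5 days. EGF medium held 2.5 nM EGF, which activates the EGF receptor. WR medium held 0.1 nM NGS-Wnt, a surrogate that activates Wnt receptors, and 8.3 nM Rspo2 (R-spondin 2), which strengthens Wnt signalling. EGF-WR medium held all of these factors at the same doses. Each of the 6 groups had 3 biological replicates, and replicate 1, 2 or 3 is also the batch named in the labels, so each batch held 1 library of every group. How many animals stood behind a batch is not given in the sources used here, and p-values measure the spread between these samples. No group was grown in low oxygen, and no oxygen, glucose or lactate measurement was used here.

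Glycolysis splits glucose into pyruvate and yields ATP without oxygen. Hexokinases trap glucose in the cell, phosphofructokinase commits it to breakdown, and lactate dehydrogenase turns pyruvate into lactate. HIF-1 and HIF-2 are transcription factors whose alpha subunits are marked for destruction by the EGLN prolyl hydroxylases when oxygen is present. In low oxygen they accumulate and bind short DNA elements near genes for glucose import, glycolysis, acid export, vessel growth and removal of mitochondria. Growth factor signalling can raise HIF activity and many glycolytic genes in normal oxygen too, and Wnt signalling is known to raise Pdk1 in colon cancer cells.

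The HIF-bound element has the core ACGTG or GCGTG, on either strand. Promoters of 5 genes are shown as examples, chosen after their values were seen. Car9, Ldha, Bnip3 and Slc2a1 were taken because their windows hold a core: Car9 and Ldha were called higher in EGF-WR than in WR medium, and the response of Bnip3 and Slc2a1 differed between batches. Hk1, with a lower adjusted p between EGF-WR and WR medium than any of these, is shown because its window holds none. Each window is the 250 bases before the gene's most upstream RefSeq transcription start on GRCm38.p6. Other starts were not examined, and the deposited records of Car9 and Ldha begin further upstream than the starts used. The bases run 5′ to 3′ on the gene's strand, with cores in capitals. A core on the opposite strand reads CACGT or CACGC, and a CACGTG run holds a core on both strands and counts as 2 matches. The windows are chr4:43506776-43507025 on the plus strand for Car9, chr7:46845554-46845803 on the plus strand for Ldha, chr7:138909507-138909756 on the minus strand for Bnip3, chr4:119108495-119108744 on the plus strand for Slc2a1 and chr10:62379909-62380158 on the minus strand for Hk1.
Car9: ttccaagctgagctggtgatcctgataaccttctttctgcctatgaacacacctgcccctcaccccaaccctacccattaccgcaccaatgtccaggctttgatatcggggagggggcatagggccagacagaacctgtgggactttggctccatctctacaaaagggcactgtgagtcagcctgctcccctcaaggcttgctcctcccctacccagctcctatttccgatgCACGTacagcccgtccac
Ldha: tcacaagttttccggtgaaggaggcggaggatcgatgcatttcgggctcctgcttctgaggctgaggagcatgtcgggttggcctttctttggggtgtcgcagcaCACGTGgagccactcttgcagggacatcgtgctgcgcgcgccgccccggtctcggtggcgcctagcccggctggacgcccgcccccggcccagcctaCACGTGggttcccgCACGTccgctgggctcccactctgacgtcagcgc
Bnip3: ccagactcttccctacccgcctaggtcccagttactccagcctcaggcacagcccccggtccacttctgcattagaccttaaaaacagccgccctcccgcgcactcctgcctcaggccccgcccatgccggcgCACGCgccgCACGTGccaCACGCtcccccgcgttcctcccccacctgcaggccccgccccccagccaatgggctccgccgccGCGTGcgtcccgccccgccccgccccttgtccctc
Slc2a1: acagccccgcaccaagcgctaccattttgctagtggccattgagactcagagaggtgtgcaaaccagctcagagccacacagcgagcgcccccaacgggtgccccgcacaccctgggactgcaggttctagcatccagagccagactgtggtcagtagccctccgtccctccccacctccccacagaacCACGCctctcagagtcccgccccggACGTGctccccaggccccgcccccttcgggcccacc
Hk1: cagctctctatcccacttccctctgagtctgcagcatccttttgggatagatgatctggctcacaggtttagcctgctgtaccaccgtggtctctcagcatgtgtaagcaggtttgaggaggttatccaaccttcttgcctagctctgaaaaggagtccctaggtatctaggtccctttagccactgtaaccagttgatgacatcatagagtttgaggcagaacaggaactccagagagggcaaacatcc
The Car9 window holds 1 core, 18 bases before the start. The Ldha window holds 5 matches, all of the ACGTG form, in 2 CACGTG runs and a CACGT. The Bnip3 window also holds 5, of which 2 are ACGTG, and the Slc2a1 window holds 2, at 61 and 36 bases before the start.

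RefSeq promoter windows were found for 35 of the 37 symbols, all but Ndrg1 and Bnip3l. A core of either form lay in 26 of these 35 (74.3%), against 38.6% of all 27025 promoters in the table. The ACGTG form lay in 15 of 35 (42.9%), against 16.5% of all. The list was chosen for known HIF targets, and its promoters are richer in G and C, with a median of 60.4% against 52.0%. A core was found in 9 of 15 members that were called between media and in 17 of 20 that were not. Those of Hk1 and Aldoa hold none. A match is a stretch of letters and not a measured binding site.

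Library totals ran from 24290097 to 31269899 counts, and mitochondrial genes took 1.28% to 2.54% of a library. The members together took 0.456% to 1.29%. Rasgrp1 had 6 to 28 counts in the 9 WT libraries, 145 in all, and 0 to 9 in the 9 KO libraries, 25 in all. In KO, 5 libraries had 0, and 19 of the 25 counts lay in the KO libraries of batch 3, with 4, 6 and 9, so at these low counts the gene does not separate every KO library from every WT library. Which part of the gene is deleted is not given in the sources used here. Levels are given as CPM, the count scaled to an effective library size of 1000000. Epithelial markers (keratins and epithelial adhesion genes) summed to 6145 to 11799 CPM in the 18 libraries, so the epithelial label held throughout. Their sum moved with the medium. In WT it was 7112 to 7998 CPM in EGF, 9499 to 11799 CPM in WR and 7939 to 9399 CPM in EGF-WR medium. In KO it was 6145 to 9402, 8924 to 11249 and 7434 to 9948 CPM in the same order. Markers of other cells were also present and moved with the medium. Adipocyte markers summed to 423 to 1518 CPM in EGF medium, 438 to 2292 CPM in WR medium and 85.3 to 574 CPM in EGF-WR medium, and fibroblast markers to 3110 to 6390, 2617 to 6441 and 1571 to 3387 CPM. Endothelial markers summed to 453 to 690, 386 to 810 and 186 to 324 CPM in the same order of media. Myeloid markers moved with EGF and did not overlap between EGF and WR medium, at 705 to 1044 CPM in EGF, 226 to 362 CPM in WR and 383 to 754 CPM in EGF-WR medium. Suprabasal epidermal markers moved the other way, at 74.0 to 172 CPM in EGF, 392 to 1571 CPM in WR and 133 to 245 CPM in EGF-WR medium. Whether these differences play a part in those of the members was not tested, and in bulk RNA fewer cells of a type cannot be told apart from less RNA per cell.

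Divided by the summed exon length of the gene, Aldoa was the highest member at 351 CPM per kilobase on average over the libraries, followed by Pkm at 231, Ldha at 178, Tpi1 at 101 and Aldoc at 73.6 CPM per kilobase. Egln3 stood at 26.7 and Car9 at 5.96 CPM per kilobase. Ankrd37 at 1.54, Pfkfb4 at 1.33 and Eno2 at 1.05 CPM per kilobase were the lowest. Eno2 encodes the neuronal form of enolase.

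**Figure D1:**
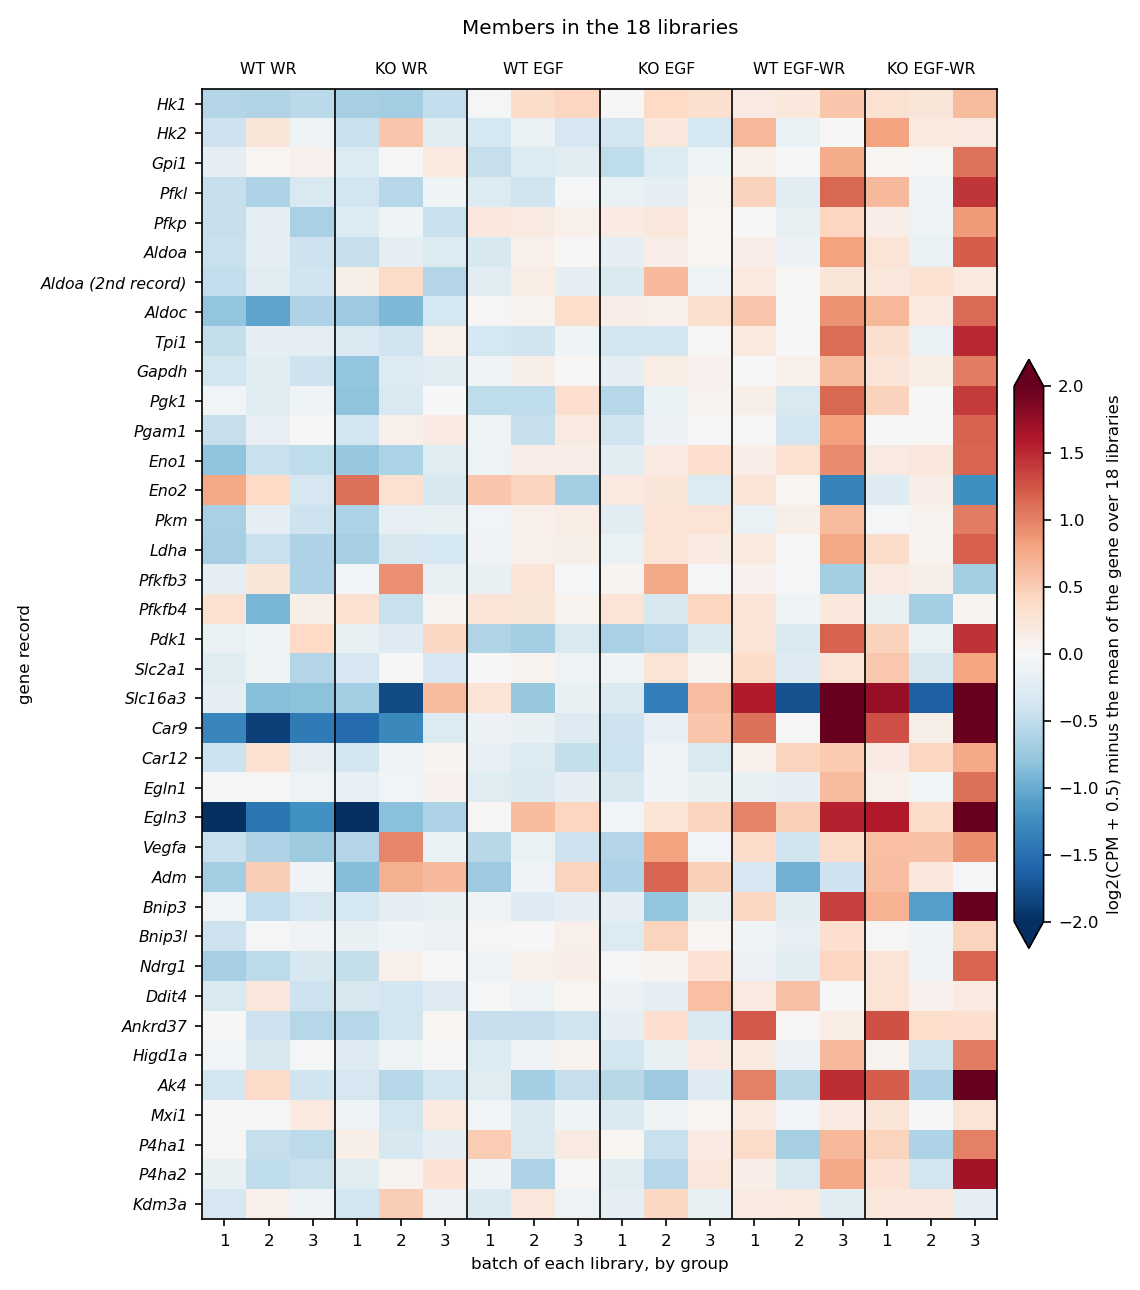
Level of each of the 38 member records (rows) in each of the 18 libraries (columns), as log2(CPM + 0.5) minus the record's mean over the libraries; colours stop at 2 in either direction. The EGF-WR libraries of batch 3 stand out as the columns with most members above their mean, and those of batch 2 do not.

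Many members were higher in EGF-WR than in WR medium. With EGF alone, the number called was near the share of all genes called, although Hk1, Aldoc, Eno1 and Egln3 were among them. In EGF-WR against WR medium, 35 of 38 records had a positive log2 fold change in WT and 35 of 38 in KO, with medians of 0.54 and 0.60 against 0.00 for all tested genes in WT. A record was called at an adjusted p under 0.05 in the quasi-likelihood F-test of edgeR with the batch as a block. In WT, 8 members rose, where 4.92% of all tested genes rose. They were Hk1, Pfkl, Aldoc, Eno1, Pkm, Ldha, Car9 and Egln3, and no member fell, where 5.82% of all genes fell. In KO, 12 members rose, where 6.10% of all genes rose: the same 8 and Tpi1, Gapdh, Pgk1 and Car12. Eno2 fell, 1 member where 6.65% of all genes fell.

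EGF alone against WR medium gave a shorter list. Of the members, 26 had a positive log2 fold change in WT and 25 in KO, with medians of 0.21 and 0.17 against -0.01 and -0.02 for all genes. Hk1, Aldoc, Eno1 and Egln3 rose in WT, that is 4 members where 8.52% of all genes rose, and none fell, where 6.92% of all genes fell. Hk1, Aldoc and Eno1 rose in KO, 3 members where 7.55% of all genes rose, and none fell, where 5.94% did. In EGF-WR against EGF medium, Gpi1, Pfkl, Pdk1 and Car12 rose in WT, 4 members where 6.85% of all genes rose. In KO these 4 rose with Aldoc, Tpi1, Pgk1 and Car9, 8 members where 5.17% of all genes rose. No member fell in either genotype, where 8.78% and 6.48% of all genes fell. The 3 comparisons of a genotype share their libraries and are not independent of each other.

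Over these 6 comparisons there were 40 calls in 15 records, 39 of them higher. In all 40 the change had the same sign in each of the 3 batches. A call in a fit with the batch as a block makes this likely, and its share over all called genes was not counted. In 31 calls (77.5%) the 3 libraries of one medium did not overlap the 3 of the other. Of the 13622 calls over all genes in these comparisons, 69.4% did not overlap. The other 23 records were called in none. In a fit without the batch block, 17 of the 40 calls held and 23 were lost. When each of the 18 libraries was left out in turn, 18 calls held every time, and 10 of these also held without each batch. Those 10 were the calls of Hk1 and Aldoc in both media against WR and of Eno1 in EGF-WR against WR medium, in each genotype. The number of members called in EGF-WR against WR medium fell to 5 in WT without the WT library of batch 1 or 3 in EGF-WR medium or of batch 3 in WR medium, and to 8 in KO without the KO library of batch 1 in WR medium. It rose to 13 in WT without the KO library of batch 3 in EGF-WR medium and to 23 in KO without that of batch 2. In EGF against WR medium the KO libraries of batches 2 and 3 in EGF-WR medium decided most: without them in turn, 8 and 10 members were called in WT and 5 and 6 in KO. In EGF-WR against EGF medium in WT, 0 members were called without the WT library of batch 3 in either medium, 2 without that of batch 1 in EGF-WR medium, and 8 without the KO library of batch 2 or 3 in EGF-WR medium. In KO, 1 was called without the KO library of batch 3 in EGF medium, 3 without that of batch 3 in EGF-WR medium, 4 without either KO library of batch 1 in these media, 19 without that of batch 2 in EGF-WR medium, and 5 without any 1 of 7 other libraries. How many of all genes were called in these fits is not given here, so the shifts are not a result about the members.

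**Figure D2:**
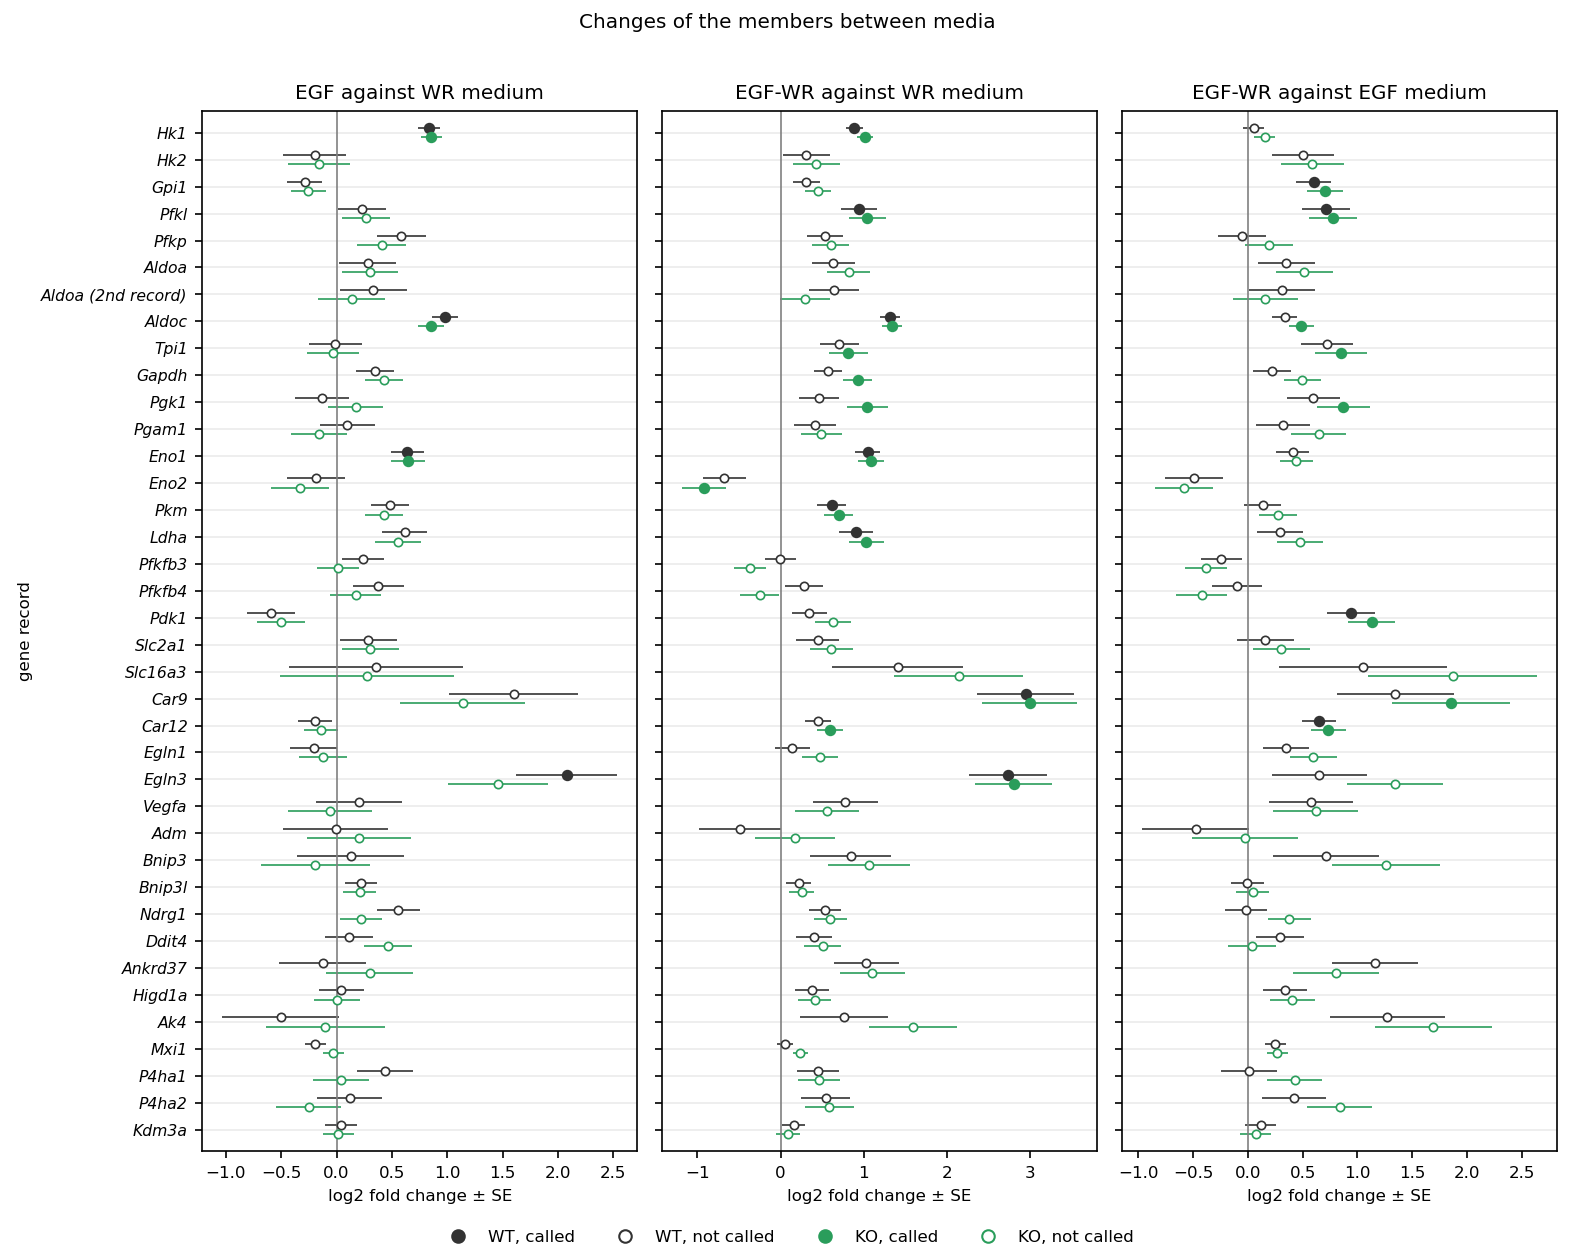
Log2 fold change of each member between media with its standard error, in WT and in KO; filled points passed the test at an adjusted p under 0.05. Points lie mostly to the right of 0 in the comparison of EGF-WR with WR medium, with Car9 and Egln3 farthest among the called members.

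Among enzymes of upper glycolysis, Hk1 and Aldoc separated the media most sharply. Hk1, a hexokinase gene (chr10:62268855-62379908, GRCm38 as in the deposited table), stood at 273, 271 and 284 CPM in batches 1, 2 and 3 of WT in WR medium, at 400, 534 and 555 CPM in EGF medium and at 462, 476 and 607 CPM in EGF-WR medium. In KO it stood at 261, 256 and 292 CPM in WR medium, at 410, 542 and 517 CPM in EGF medium and at 507, 489 and 640 CPM in EGF-WR medium. Every library with EGF was above every library without it, in both genotypes. The fold change in EGF against WR medium was 1.78 in WT (log2 0.83 ± 0.10 SE, adjusted p = 1.13e-05) and 1.81 in KO (log2 0.86 ± 0.10, adjusted p = 1.11e-05). With the Wnt factors present as well, against WR medium, it was 1.85 in WT (log2 0.89 ± 0.10, adjusted p = 1.35e-05) and 2.01 in KO (log2 1.01 ± 0.10, adjusted p = 3.44e-06). Adding the Wnt factors to EGF changed it by a log2 of 0.05 ± 0.10 in WT and 0.15 ± 0.10 in KO, neither called (adjusted p = 0.784 and 0.343). Hk2, the hexokinase most often described as HIF-induced, was not called in any comparison of media over all batches, with log2 fold changes from -0.20 to 0.59. Its response to EGF-WR against WR medium differed by batch, as given below. The within-batch ratios in batches 1, 2 and 3 were 2.10, 0.77 and 1.07 in WT and 2.38, 0.78 and 1.31 in KO.

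Aldoc (chr11:78322968-78327781), an aldolase that splits fructose bisphosphate, stood at 127, 106 and 143 CPM in WT in WR medium, at 223, 231 and 282 CPM in EGF medium and at 322, 221 and 409 CPM in EGF-WR medium. In KO the levels were 132, 118 and 172 CPM, 242, 235 and 275 CPM, and 350, 253 and 483 CPM in the same order of media. The WR libraries were again below all others. It rose 1.97-fold in EGF against WR medium in WT (log2 0.98 ± 0.12, adjusted p = 1.83e-05) and 1.80-fold in KO (log2 0.85 ± 0.12, adjusted p = 8.42e-05; 0.0551 without the block). In EGF-WR against WR medium it rose 2.49-fold in WT (log2 1.31 ± 0.12, adjusted p = 2.75e-06) and 2.53-fold in KO (log2 1.34 ± 0.12, adjusted p = 2.06e-06). Between EGF-WR and EGF medium its libraries overlapped. The difference was called in KO (log2 0.49 ± 0.11, adjusted p = 0.0119; 0.347 without the block, 0.0807 without the KO library of batch 3 in EGF medium and 0.0788 without that in EGF-WR medium) and not in WT (log2 0.34 ± 0.11, adjusted p = 0.0576).

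Pfkl (chr10:77986947-78010083), the liver form of phosphofructokinase, stood at 188, 169 and 211 CPM in WT in WR medium, at 216, 197 and 257 CPM in EGF medium and at 359, 222 and 580 CPM in EGF-WR medium. In KO it stood at 200, 176 and 244 CPM, 237, 229 and 272 CPM, and 408, 245 and 701 CPM. The EGF-WR libraries of batch 2 were close to the EGF libraries, and those of batch 3 were the highest. Pfkl rose in EGF-WR against WR medium 1.92-fold in WT (log2 0.94 ± 0.22, adjusted p = 0.0152; 0.127 without the block) and 2.06-fold in KO (log2 1.04 ± 0.22, adjusted p = 0.00756; 0.0827 without the block). In WT the call was lost without any 1 of 4 libraries, those of WT in batches 1 and 3 in either medium, with adjusted p from 0.0575 to 0.0808. Against EGF medium, with overlapping libraries, it rose 1.64-fold in WT (adjusted p = 0.0449; 0.241 without the block) and 1.71-fold in KO (adjusted p = 0.0388; 0.253 without the block). These calls were lost without any 1 of 14 libraries in WT, with adjusted p up to 0.22, and of 12 in KO, up to 0.172.

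Gpi1 (chr7:34201330-34230336), the enzyme that turns glucose phosphate into fructose phosphate, stood at 266, 301 and 316 CPM in WT in EGF medium and at 391, 368 and 614 CPM in EGF-WR medium. In KO the levels were 255, 301 and 344 CPM, and 374, 370 and 779 CPM. The groups did not overlap. It rose 1.52-fold in WT (log2 0.60 ± 0.16, adjusted p = 0.0225) and 1.63-fold in KO (log2 0.70 ± 0.16, adjusted p = 0.0131), with adjusted p = 0.228 and 0.204 without the block. The call in WT was lost without the WT library of batch 3 in EGF medium (adjusted p = 0.142) or of batch 1 or 3 in EGF-WR medium (0.0708 and 0.101), and the KO call without the KO library of batch 3 in EGF medium (0.075).

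Tpi1 (chr6:124810586-124814296), triose phosphate isomerase, was called in KO alone. It stood at 209, 194 and 275 CPM in WR medium, at 198, 199 and 262 CPM in EGF medium and at 320, 234 and 729 CPM in EGF-WR medium, so the EGF-WR library of batch 2 lay inside the range of the other media. The fold change was 1.76 against WR medium (log2 0.82 ± 0.24, adjusted p = 0.0437; 0.197 without the block) and 1.80 against EGF medium (log2 0.85 ± 0.24, adjusted p = 0.0387; 0.235 without the block). These calls were lost without any 1 of 13 and of 12 libraries, with adjusted p up to 0.157 and 0.162. In WT it stood at 186, 225 and 227 CPM in WR medium and at 294, 259 and 557 CPM in EGF-WR medium, without a call. Aldoa, the most abundant aldolase here, reached 1698 CPM in WT and 2256 CPM in KO in the EGF-WR libraries of batch 3, against 704 to 858 CPM in the WR libraries. It was not called (log2 0.82 ± 0.26, adjusted p = 0.0642, in EGF-WR against WR medium in KO), and neither was Pfkp, the platelet form of phosphofructokinase, with log2 fold changes from -0.05 to 0.60. The second Aldoa record (ENSMUSG00000114515) stayed between 1.68 and 4.68 CPM.

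In lower glycolysis the enolase Eno1 (chr4:150236721-150248879) followed EGF most closely. It stood at 132, 170 and 161 CPM in WT in WR medium, at 214, 252 and 252 CPM in EGF medium and at 252, 286 and 445 CPM in EGF-WR medium. In KO the levels were 135, 148 and 194 CPM, 197, 258 and 292 CPM, and 259, 268 and 515 CPM. The libraries with EGF were above the WR libraries of their genotype. Eno1 rose in EGF-WR against WR medium 2.07-fold in WT (log2 1.05 ± 0.15, adjusted p = 0.000479) and 2.13-fold in KO (log2 1.09 ± 0.15, adjusted p = 0.000345). In EGF against WR medium it rose 1.56-fold in WT (log2 0.64 ± 0.15, adjusted p = 0.00921; 0.221 without the block) and 1.56-fold in KO (log2 0.64 ± 0.15, adjusted p = 0.0099; 0.236 without the block). The WT call was lost without the WT library of batch 2 in EGF medium (adjusted p = 0.0561) or of batch 3 in WR medium (0.0511), and the KO call without the KO library of batch 2 in EGF medium (0.0568). Of its transcript's 50-base windows 72.2% also occur in other genes, so reads of Eno1 could have been split or lost in the authors' counting.

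Eno2 (chr6:124760053-124769673) was the only member called lower. It stood at 10.2, 5.73 and 3.53 CPM in KO in WR medium and at 3.71, 4.98 and 1.64 CPM in EGF-WR medium, with overlap. The difference was 1.89-fold (log2 -0.92 ± 0.27, adjusted p = 0.0304; 0.516 without the block), and it was lost without the KO library of batch 1 or 3 in either medium (adjusted p from 0.0698 to 0.17). In WT the log2 fold change was -0.67 ± 0.26 (adjusted p = 0.124).

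Ldha (chr7:46841475-46855627), which makes lactate from pyruvate and whose promoter is printed above, stood at 350, 407 and 363 CPM in WT in WR medium, at 527, 596 and 601 CPM in EGF medium and at 639, 557 and 953 CPM in EGF-WR medium. In KO it stood at 352, 444 and 436 CPM, 508, 671 and 629 CPM, and 721, 586 and 1273 CPM. All libraries with EGF were higher than those without. In EGF-WR against WR medium it rose 1.88-fold in WT (log2 0.91 ± 0.21, adjusted p = 0.0139) and 2.04-fold in KO (log2 1.03 ± 0.21, adjusted p = 0.00599), and both calls held without the block (0.0492 and 0.0262). The WT call was lost without the WT library of batch 1 or 3 in EGF-WR medium (adjusted p = 0.0585 and 0.0698) or of batch 3 in WR medium (0.0745). In EGF against WR medium in WT the log2 fold change of 0.61 ± 0.21 missed the threshold (adjusted p = 0.0666), although the groups did not overlap.

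Pkm (chr9:59656368-59679375), pyruvate kinase, stood at 705, 966 and 834 CPM in WT in WR medium and at 1008, 1202 and 1712 CPM in EGF-WR medium. In KO the levels were 716, 988 and 1004 CPM, and 1081, 1161 and 2278 CPM. The groups did not overlap, but the margin was narrow in both genotypes. It rose 1.53-fold in WT (log2 0.62 ± 0.17, adjusted p = 0.037; 0.278 without the block) and 1.63-fold in KO (log2 0.70 ± 0.17, adjusted p = 0.0169; 0.167 without the block). The WT call was lost without any 1 of 10 libraries, with adjusted p up to 0.169, and the KO call without the KO library of batch 1 or 3 in WR medium (0.0715 and 0.0739). Of its 50-base windows 34.4% are shared with other genes.

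Gapdh (chr6:125161715-125166467), which oxidizes glyceraldehyde phosphate and often serves as a reference gene, was called in KO in EGF-WR against WR medium. It stood at 73.8, 105 and 110 CPM in WR medium and at 152, 142 and 259 CPM in EGF-WR medium. The groups did not overlap, and it rose 1.90-fold (log2 0.93 ± 0.17, adjusted p = 0.003). In WT its log2 fold change was 0.57 ± 0.17 (adjusted p = 0.0514). Its level is uncertain, since 82.5% of its 50-base windows are shared with 222 other genes, many of them processed copies. Pgk1 (chrX:106187100-106203699), phosphoglycerate kinase, shares 68.0% of its windows and is equally uncertain. In KO it stood at 7.45, 10.7 and 13.3 CPM in WR medium, at 8.9, 12.1 and 14.1 CPM in EGF medium and at 18.7, 13.3 and 36.2 CPM in EGF-WR medium. The batch 2 library in EGF-WR medium was level with the highest WR library and overlapped both other media. Pgk1 rose 2.06-fold against WR medium (log2 1.04 ± 0.25, adjusted p = 0.00894; 0.18 without the block) and 1.83-fold against EGF medium (log2 0.87 ± 0.25, adjusted p = 0.0297; 0.326 without the block). The first call was lost without the KO library of batch 3 in EGF-WR medium or of batch 1 in WR medium (adjusted p = 0.0591 and 0.0595), and the second without the KO library of batch 1 or 3 in either medium (from 0.0812 to 0.159). Pgam1, phosphoglycerate mutase, ran from 4.66 to 15.5 CPM over the 18 libraries, shares 41.5% of its windows and was not called.

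Of the genes that steer the flow of glucose and pyruvate, only Pdk1 was called. Pdk1 (chr2:71873224-71903858) is a kinase that shuts off pyruvate dehydrogenase and so keeps pyruvate from the mitochondria. In WT it stood at 48.1, 45.1 and 59.2 CPM in EGF medium and at 88.1, 59.7 and 166 CPM in EGF-WR medium, and in KO at 46.4, 49.3 and 59.5 CPM and at 101, 66.8 and 201 CPM. No EGF-WR library fell into the range of the EGF libraries, although the WT library of batch 2 came within 1 CPM of it. Pdk1 rose 1.92-fold in WT (log2 0.94 ± 0.22, adjusted p = 0.0112; 0.172 without the block) and 2.19-fold in KO (log2 1.13 ± 0.22, adjusted p = 0.00594; 0.155 without the block). The WT call was lost without the WT library of batch 3 in EGF medium (adjusted p = 0.0842) or in EGF-WR medium (0.0553). Unlike Hk1, Aldoc and Eno1, Pdk1 was not higher in EGF than in WR medium: the WT levels in WR medium were 66.5, 69.3 and 96.1 CPM, above each EGF library (log2 -0.59 ± 0.22, adjusted p = 0.0885).

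The glucose importer Slc2a1 (GLUT1) stood at 220, 143 and 208 CPM in WT in EGF-WR medium and at 144, 160 and 113 CPM in WR medium, and in KO at 249, 137 and 296 CPM and at 136, 172 and 136 CPM. Batch 2 went the other way from batches 1 and 3, and there was no call (log2 0.45 ± 0.26 in WT and 0.61 ± 0.26 in KO). Slc16a3 (MCT4), which exports lactate, stood at 29.6, 2.5 and 46.2 CPM in WT in EGF-WR medium and at 32.8, 2.73 and 90.4 CPM in KO, against 2.39 to 15 CPM in the 6 WR libraries. Its log2 fold change of 2.14 ± 0.78 in KO was the largest among uncalled members (adjusted p = 0.107), with the batch 2 libraries at the low end in every medium. Pfkfb3 and Pfkfb4, which set the level of the phosphofructokinase activator fructose 2,6-bisphosphate, were not called, with log2 fold changes from -0.42 to 0.38.

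**Figure D3:**
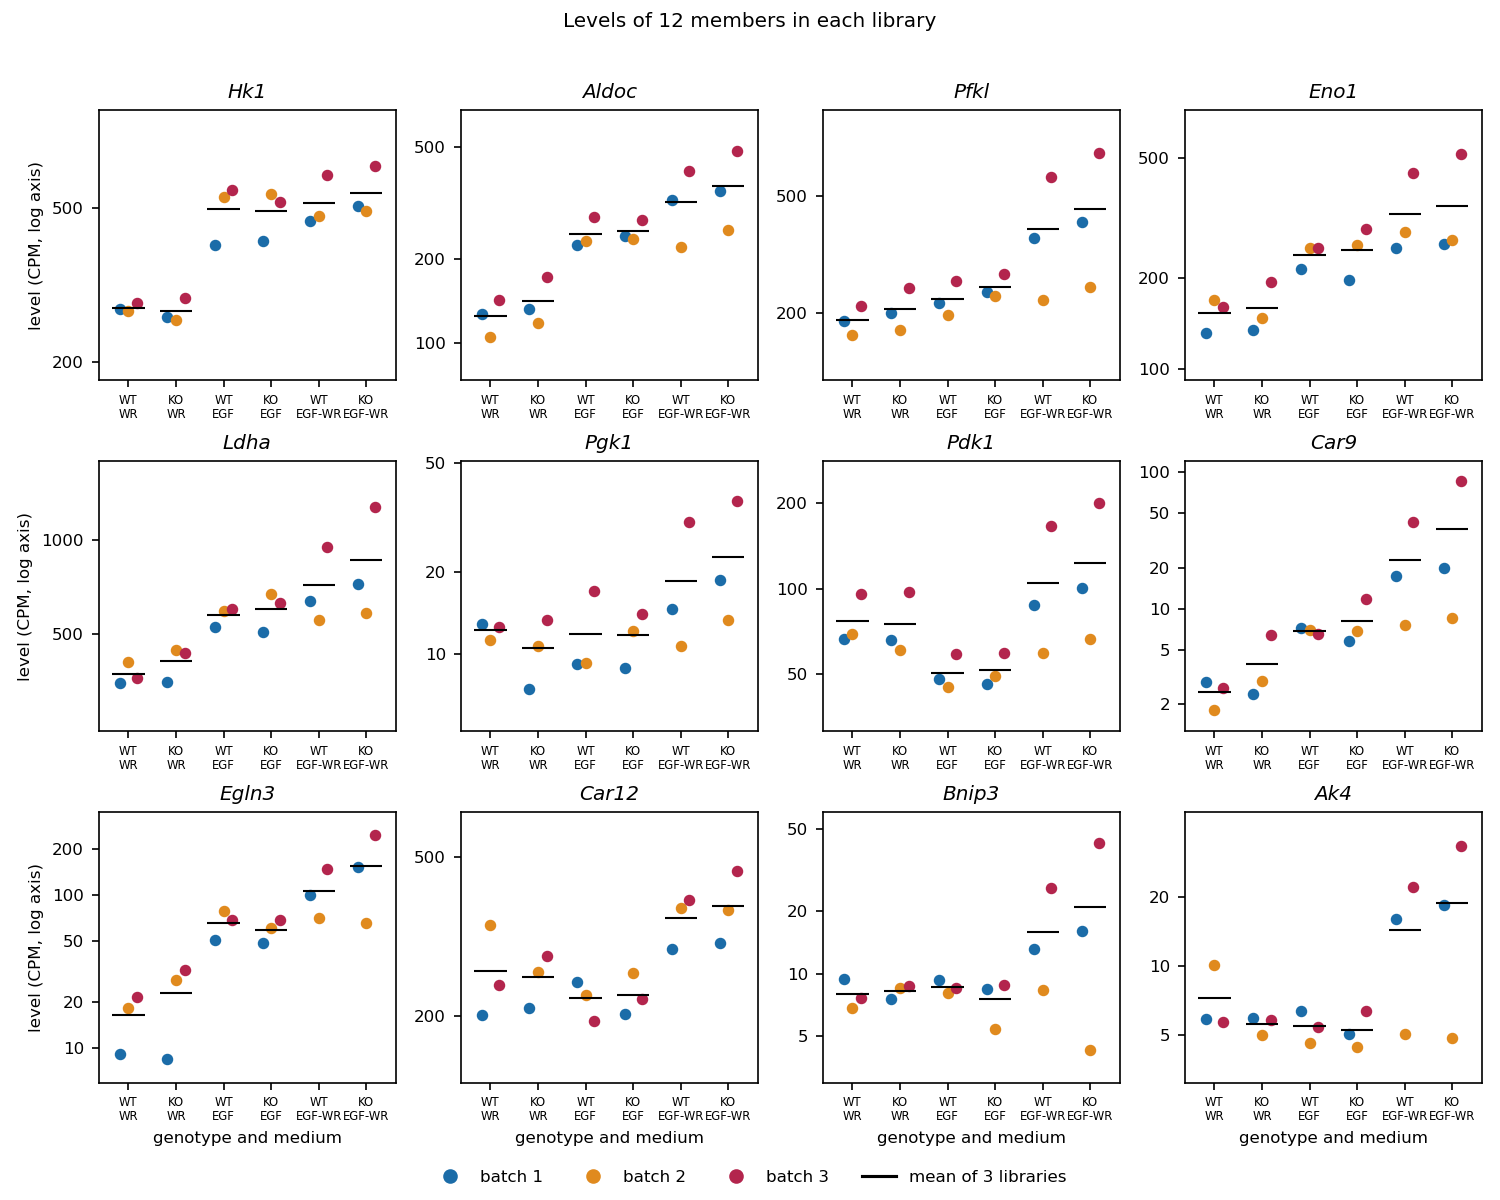
CPM on a log axis of 12 members in the 6 groups; each point is 1 library, coloured by batch, and each bar is the mean of 3 libraries. Hk1, Eno1 and Car9 separate media with EGF from WR medium in every batch. All of these, and Pdk1, Bnip3 and Ak4, are highest in the batch 3 libraries of EGF-WR medium.

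The largest called changes were in genes of acid balance and oxygen sensing. Car9 (chr4:43506966-43513729) encodes a carbonic anhydrase at the cell surface and is a widely used marker of HIF activity. It stood at 2.89, 1.8 and 2.62 CPM in WT in WR medium, at 7.15, 7.02 and 6.52 CPM in EGF medium and at 17.5, 7.6 and 43.2 CPM in EGF-WR medium. In KO it stood at 2.37, 2.92 and 6.41 CPM, 5.77, 6.91 and 11.8 CPM, and 19.9, 8.52 and 86.3 CPM. The EGF-WR libraries were above all WR libraries, but they spanned a range of several-fold between batches. Car9 rose in EGF-WR against WR medium 7.70-fold in WT (log2 2.95 ± 0.58, adjusted p = 0.00636) and 7.96-fold in KO (log2 2.99 ± 0.57, adjusted p = 0.00446). Both calls held without the block and without any 1 library, and were lost without batch 1 (adjusted p = 0.132 and 0.133). Against EGF medium it was called in KO (3.62-fold, log2 1.85 ± 0.54, adjusted p = 0.0458; 0.185 without the block), with overlap. That call was lost without any 1 of 15 libraries, and without the KO library of batch 3 in EGF-WR medium the log2 fold change dropped to 1.08 (adjusted p = 0.202).

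Egln3 (chr12:54178981-54203860) encodes PHD3, a HIF prolyl hydroxylase that is itself induced by HIF. It stood at 9.11, 18.3 and 21.6 CPM in WT in WR medium, at 51, 78.5 and 68.4 CPM in EGF medium and at 101, 70.3 and 147 CPM in EGF-WR medium. In KO the levels were 8.5, 27.9 and 32.6 CPM, 48.3, 61.1 and 69.1 CPM, and 153, 66 and 247 CPM. Every library with EGF was above every WR library. In EGF-WR against WR medium Egln3 rose 6.64-fold in WT (log2 2.73 ± 0.47, adjusted p = 0.00325) and 6.96-fold in KO (log2 2.80 ± 0.47, adjusted p = 0.00248). Both calls held without any 1 library. They were lost without batch 1 (adjusted p = 0.067 and 0.0745), without batch 3 (0.143 and 0.118) and with only the groups compared. In EGF against WR medium it rose 4.22-fold in WT (log2 2.08 ± 0.46, adjusted p = 0.00972). That call was lost without the WT library of batch 1 in WR medium (log2 1.89, adjusted p = 0.0519). It was also lost without batch 1 (adjusted p = 0.073) or batch 3 (0.195). In KO the log2 fold change was 1.46 ± 0.45 and missed the threshold (adjusted p = 0.0571), although the groups did not overlap. The difference between the genotypes in this response was not called. Egln1, the main oxygen sensor of this family, ran from 54.9 to 73.3 CPM apart from the EGF-WR libraries of batch 3 at 107 and 148 CPM, and was not called.

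Car12 (chr9:66713686-66766845), another carbonic anhydrase at the cell surface, was higher when the Wnt factors were added to EGF. It stood at 244, 226 and 195 CPM in WT in EGF medium and at 293, 373 and 391 CPM in EGF-WR medium, and in KO at 202, 256 and 220 CPM and at 304, 368 and 461 CPM. The groups did not overlap. It rose 1.57-fold in WT (log2 0.65 ± 0.16, adjusted p = 0.0123; 0.0875 without the block) and 1.66-fold in KO (log2 0.74 ± 0.16, adjusted p = 0.0084; 0.103 without the block). The WT call was lost without the WT library of batch 2 or 3 in EGF medium (adjusted p = 0.0639 and 0.0849) or of batch 3 in EGF-WR medium (0.0578), and the KO call without the KO library of batch 3 in EGF medium (0.0539). Against WR medium, at 210, 258 and 283 CPM in KO, it was called in KO (1.51-fold, log2 0.59 ± 0.16, adjusted p = 0.0215; 0.129 without the block). That call was lost without the KO library of batch 3 in EGF-WR medium or of batch 1 or 2 in WR medium (adjusted p from 0.0934 to 0.118).

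The secreted, mitophagy, stress and hydroxylase genes gave no call between media. Vegfa, the vessel growth factor, stood at 153, 89.2 and 153 CPM in WT in EGF-WR medium and at 86.5, 76.6 and 71.4 CPM in WR medium (log2 0.78 ± 0.39, adjusted p = 0.275). Bnip3, a receptor for removal of mitochondria, stood at 13.2, 8.36 and 26 CPM in WT in EGF-WR medium and at 9.44, 6.84 and 7.63 CPM in WR medium, and in KO at 16.2, 4.28 and 42.8 CPM and at 7.56, 8.57 and 8.75 CPM. Ak4, a mitochondrial adenylate kinase, stood at 15.9, 5.07 and 22.2 CPM in WT in EGF-WR medium and at 18.4, 4.83 and 33.4 CPM in KO. Its change against EGF medium in KO was a log2 of 1.69 ± 0.53 (adjusted p = 0.0597). For Bnip3 and Ak4 the libraries of batches 1 and 3 were high in EGF-WR medium and those of batch 2 were near or in the range of the other media. Bnip3 shares 62.4% of its 50-base windows with other genes, and its level is uncertain. Ankrd37 came closest to a call, at 5.68, 2.2 and 2.46 CPM in WT in EGF-WR medium against 1.44, 1.44 and 1.51 CPM in EGF medium (log2 1.16 ± 0.39, adjusted p = 0.0551). Ndrg1, a stress-induced gene, had a log2 of 0.60 ± 0.19 in EGF-WR against WR medium in KO (adjusted p = 0.0627). The collagen prolyl hydroxylase genes P4ha1 and P4ha2, the histone demethylase gene Kdm3a, the stress gene Ddit4, the Max-binding repressor gene Mxi1, the mitophagy receptor gene Bnip3l, the mitochondrial gene Higd1a and the peptide hormone gene Adm were not called either. Ddit4, Mxi1 and Bnip3l spanned narrow ranges of 66.7 to 134, 51.2 to 79.1 and 41.9 to 76.6 CPM over the 18 libraries.

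The response to EGF-WR against WR medium differed between the batches, in the same order in WT and in KO. Of 38 records, 7, 3 and 19 were more than 2-fold higher in batches 1, 2 and 3 of WT, where 2.36%, 2.42% and 2.27% of all genes were. In KO these numbers were 14, 3 and 25, where 2.87%, 4.08% and 2.02% of all genes were. The median log2 ratio of the members was 0.51, 0.17 and 0.95 in WT and 0.67, 0.02 and 1.13 in KO. In KO of batch 2, 19 records were higher and 19 lower. For EGF against WR medium the medians lay closer, at 0.16, 0.14 and 0.36 in WT and 0.17, 0.19 and 0.14 in KO. The KO library of batch 3 in EGF-WR medium held the highest level of 27 of the 38 records. It held the highest level of 9.73% of all tested genes. For 24 records the EGF-WR libraries of batch 3 were the highest pair, and the share of all genes with this pair highest was not counted.

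This difference between batches was tested after it had been seen. Each batch and medium had 1 mean, with a term for genotype, so the WT and KO libraries of a batch served as its 2 libraries and the p measures only the spread between the genotypes within a batch. Batch 3 minus batch 2 was called higher for 13 members (34.2%), where 0.176% of all genes were called higher. The median difference of the members was a log2 of 0.93, against -0.01 for all genes. Batch 1 minus batch 2 was called higher for 4 members, against 0.0995% of all genes, and batch 3 minus batch 1 for 1 member, against 0.0468% of all genes. For EGF against WR medium no member was called in the same differences between batches, where 0.0117%, 0.211% and 0.0468% of all genes were called for batch 3 minus 2, 1 minus 2 and 3 minus 1. The exact contents of a batch, such as culture or preparation day, are not known from the labels or headers.

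Enzymes of both upper and lower glycolysis were among the 13, but Hk1, Hk2, Aldoc, Gapdh, Pgk1, Pgam1, Eno1 and Eno2 were not. The log2 response of Aldoa was 1.36 in batch 3 and 0.07 in batch 2 (difference 1.30 ± 0.12, adjusted p = 0.000118), and that of Pfkl was 1.49 and 0.43 (difference 1.06 ± 0.10, adjusted p = 0.000118). Ldha responded by 1.47 and 0.43, Pfkp by 1.20 and 0.02, Tpi1 by 1.36 and 0.23, Pkm by 1.12 and 0.28, Gpi1 by 0.79 and 0.01, and Pdk1 by 0.92 and -0.05. Slc2a1 turned from -0.24 in batch 2 to 1.01 in batch 3 (difference 1.25 ± 0.16, adjusted p = 0.00203). Among the other HIF targets, Ak4 responded by 2.28 and -0.61 (difference 2.89 ± 0.40, adjusted p = 0.00376), Bnip3 by 2.07 and -0.28 (difference 2.35 ± 0.43, adjusted p = 0.0315), P4ha1 by 1.21 and -0.25, and Egln1 by 0.89 and -0.11. Batch 1 minus batch 2 was called for Hk2 (1.54 ± 0.18, adjusted p = 0.00359), Ak4, Slc2a1 and Pfkl, and batch 3 minus batch 1 for Aldoa (0.70 ± 0.12, adjusted p = 0.0483).

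Hk1 and Aldoc responded in every batch, and their difference between batches 3 and 2 was small and not called (0.24 ± 0.10 and 0.42 ± 0.11, adjusted p = 0.541 and 0.181). Car9 and Egln3 had large differences with wide errors that were not called either (2.04 ± 0.49 and 1.27 ± 0.38, adjusted p = 0.158 and 0.372). Kdm3a, Mxi1 and Ddit4 differed by -0.01, -0.13 and -0.01. Promoter cores were found in 9 of the 13 called genes, against 26 of all 35 members with a promoter. In the same difference between batches, the median over epithelial markers was 0.02, over oxidative phosphorylation genes 0.01 and over tricarboxylic acid cycle genes 0.04, whereas other hypoxia-response genes had a median of 0.32 with 3 of 41 called higher (Fam162a, Plod1 and Vldlr) and other glycolytic enzymes 0.20 with 1 of 11 (Pgm2). Among markers of other cells, myeloid markers had a median of 1.12, suprabasal keratinocyte markers 1.20 and adipocyte markers -0.56, with no marker called. In batch 1 minus batch 2, the adipocyte markers Retn (-3.36 ± 0.60, adjusted p = 0.0376) and Cfd (-2.85 ± 0.51, adjusted p = 0.0376) were called lower, where 0.0585% of all genes were. In EGF-WR medium of batches 1, 2 and 3, adipocyte markers summed to 165, 574 and 86.8 CPM in WT and 245, 471 and 85.3 CPM in KO, so they were highest where the members were lowest. In EGF and in WR medium these markers were also lowest in batch 3, in both genotypes. Their part in the result was not tested.

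**Figure D4:**
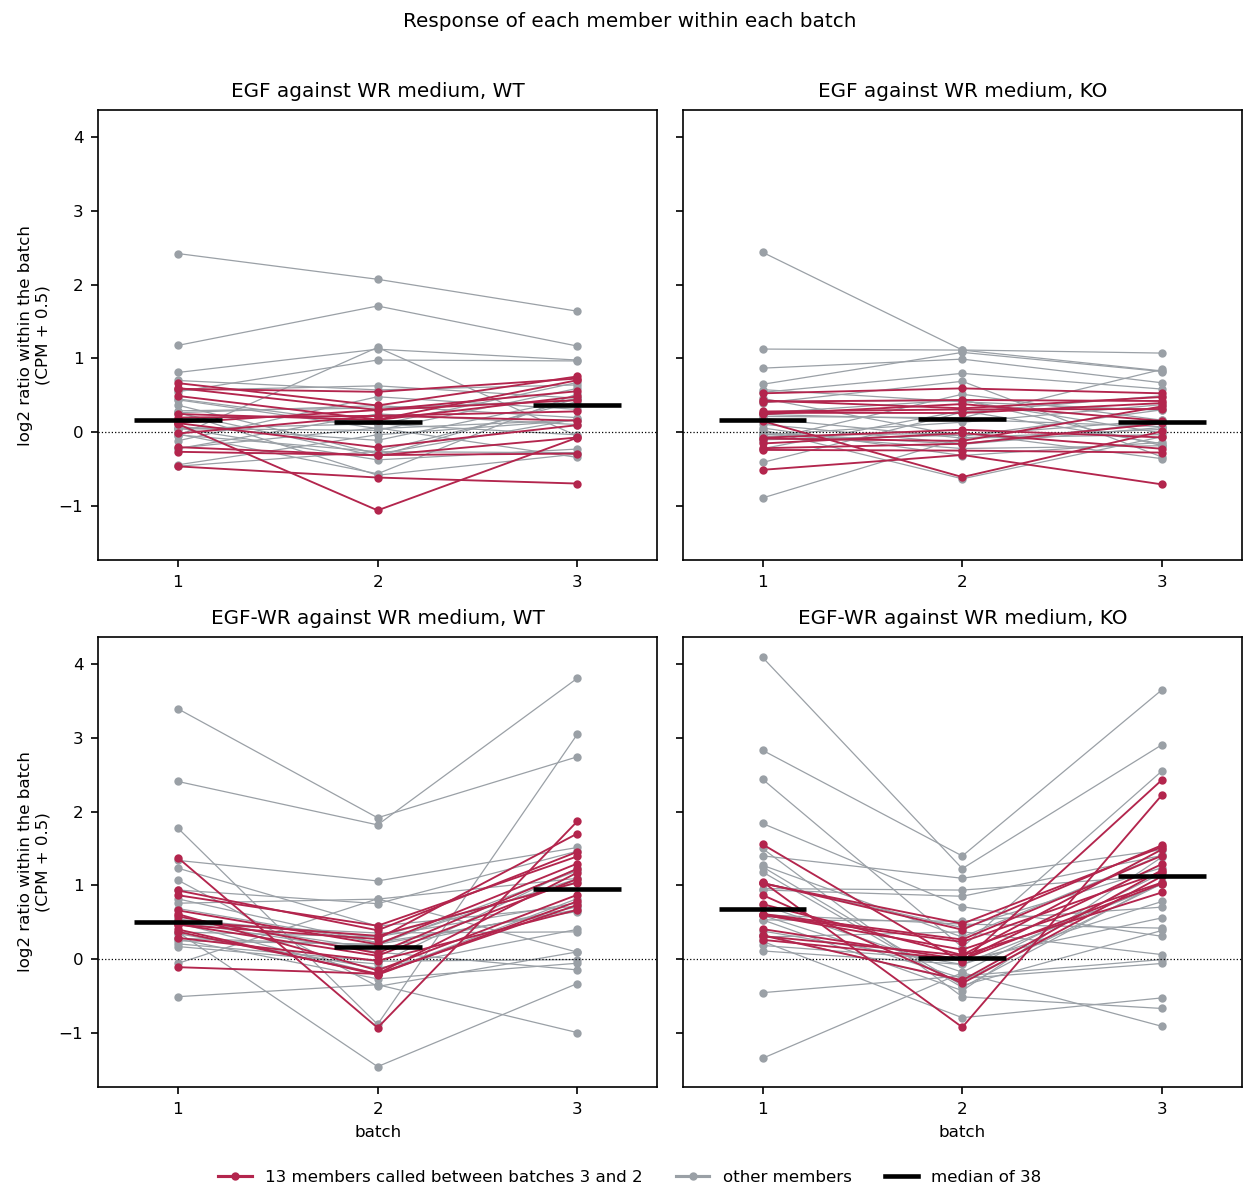
Log2 ratio of EGF-WR to WR medium and of EGF to WR medium within each batch, in WT and in KO, with 1 point per member record and a black bar at the median; the 13 members called between batches 3 and 2 are red. In EGF-WR against WR medium the medians are 0.51, 0.17 and 0.95 in WT and 0.67, 0.02 and 1.13 in KO, and the medians of EGF against WR medium lie closer together.

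Loss of RasGRP1 gave no call among the members in any medium. In KO against WT, 0.0702% of all genes were called in EGF medium, 0.0819% in EGF-WR medium, 0.0819% in WR medium and 0.339% when the media were averaged, by edgeR, and 0 members in each. At an unadjusted p under 0.05 there were 0, 1, 1 and 4 of 38 members, where 3.26%, 4.14%, 5.20% and 10.8% of all genes were, so the members' share is at or below that of all genes. The median log2 difference of the members was 0.03, 0.21, 0.09 and 0.10. The difference was positive for 26, 35, 27 and 33 of 38 records, against 48.8%, 50.7%, 49.6% and 48.8% of all genes, and no difference was called. The largest was that of Adm in EGF medium (log2 0.56 ± 0.48) and in EGF-WR medium (1.01 ± 0.48), and of Vegfa in WR medium (0.74 ± 0.39). Adm had a mean of only 3.36 CPM. In EGF-WR medium Ndrg1 stood at 185, 173 and 273 CPM in WT and at 241, 192 and 451 CPM in KO, higher in KO in each batch (log2 0.46 ± 0.19, unadjusted p = 0.0337, adjusted p = 0.976). Over the average of the media, Vegfa was higher in KO by a log2 of 0.58 ± 0.22 (adjusted p = 0.396) and Adm by 0.64 ± 0.28 (adjusted p = 0.417). Pfkfb3 stood at 37.1, 50.1 and 27.4 CPM in WT and at 40.6, 80.4 and 38.2 CPM in KO in WR medium (log2 0.45 ± 0.19, adjusted p = 0.894). No member was found to respond to a medium differently in WT and KO. In the 3 tests of such a difference, 0% of all genes and 0 members were called by edgeR, and 0 members had an unadjusted p under 0.05. DESeq2 called 0 members in these comparisons as well.

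The authors' deposited table, made with their own DESeq2 model, called all 40 of the calls above with the same sign. In WT the authors' deposited table called 10, 12 and 9 members in EGF against WR, EGF-WR against WR and EGF-WR against EGF medium, where it called 20%, 13.7% and 20.5% of all genes with a value. In KO the authors' deposited table called 6, 20 and 15 members, where it called 18%, 15.6% and 16.2% of all genes. In KO against WT it called 0 members in EGF, EGF-WR and WR medium, where it called 0.212%, 0.447% and 0.434% of all genes.

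Other genes of the same pathways moved in both directions. Of 41 other hypoxia-response genes, 10 rose and 1 fell in EGF against WR medium in WT, with a median log2 of 0.17, where 8.52% of all genes rose and 6.92% fell. In EGF-WR against WR medium 8 of the 41 rose and 3 fell, where 4.92% and 5.82% of all genes did. Among the strongest were the collagen lysyl hydroxylase genes Plod2 (log2 1.57 ± 0.12, adjusted p = 1.77e-07) and Plod1 (1.16 ± 0.21, adjusted p = 0.00189) in EGF against WR medium, and the transferrin gene Trf rose by 1.53 in KO (adjusted p = 6.14e-05). Hmox1, heme oxygenase, fell in EGF-WR against WR medium (log2 -1.14 ± 0.22, adjusted p = 0.00437). Of 14 genes for HIF subunits and their regulators, 3 rose and 1 fell in EGF against WR medium in WT, against the same shares of all genes. Hif1a rose slightly (0.29 ± 0.07, adjusted p = 0.00656), as did Vhl, which targets HIF alpha subunits for destruction (0.36, adjusted p = 0.0299). Cited2, a HIF-induced inhibitor of HIF, rose by 1.05 ± 0.14 (adjusted p = 0.000143), and the HIF partner gene Arnt2 fell by 1.08 on the log2 scale. Of 11 other glycolytic enzymes, 1 rose and 1 fell in that comparison: Bpgm by 0.69 and Ldhb, the lactate dehydrogenase subunit of oxidative tissues, by -0.34.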

How the data were processed

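RNA of 18 mammary organoid cultures was sequenced as single-end reads of 50 bases, per the labels. The authors deposited whole-number read counts per Ensembl gene and a second table with normalized signal, which is the count divided by 1 size factor per library, and with their own log2 fold changes and adjusted p-values. STAR, DESeq2 and GRCm38 are named per the submitters' processing notes. Which versions, annotation release, counting tool and strand setting were used is not given in the sources used here. Signal values, as deposited, were used only to check that they follow from the counts. The authors' model held the batch, per the file headers.

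The counts were analysed in R 4.3.3 with edgeR 4.0.16 and limma 3.58.1: TMM normalization, filterByExpr (minimum count 10, minimum total 15), 1 mean per group plus the batch over all 18 libraries, and the robust quasi-likelihood F-test, two-sided, with Benjamini-Hochberg adjustment over all 17092 tested records within each of 13 contrasts. A record was called at an adjusted p under 0.05. Levels are CPM, and log2 ratios within a batch used a pseudocount of 0.5 CPM. With 3 libraries against 3 and the batches ignored, an exact permutation test cannot go below p = 0.1. A permutation within batches has fewer arrangements and a higher floor. The block rests on the batch in the labels: residuals of libraries of 1 batch correlated at 0.175 to 0.453, and those of different batches at -0.285 to -0.00488. Residuals were taken from group means and cancel within each group. Positive values within a batch therefore make those between batches negative on average, and the second range is not separate support for the block. On counts simulated for EGF-WR against WR medium in WT (16743 genes), 35% of genes changed by a log2 of 0.5 were recovered. Of those changed by 1, 85% were recovered, and 4.88% of calls were false. The simulation was run once, with changes equal in every batch and set only in genes above a minimum mean count. Its rates need not hold for members with few counts or with responses that differ by batch.

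Members and gene lists were chosen with earlier results of these data known. Every member is accounted for, and each called member is named with its values. From other lists, at most 3 called genes per direction with a mean of at least 1 CPM are named. Promoters come from RefSeq on GRCm38.p6, with 1 window per gene before its most upstream start. Alternatives were a fit without the block, DESeq2 1.42.0 with batch, RLE size factors, no filter, only the groups compared, and leaving out each library and batch.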

Additional observations from a re-analysis of the deposited data

How the results depend on the processing

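All 40 calls held with DESeq2 and with RLE size factors, and no call reversed under any alternative. Of 1040 tests of called members under the other settings, 832 stayed past the threshold and 208 did not. Without the batch as replicate block, members called in EGF-WR against EGF medium went from 4 to 0 in WT and from 8 to 0 in KO, in KO for EGF against WR medium from 3 to 1, and in KO for EGF-WR against WR medium from 13 to 7 (in WT from 8 to 6). All genes called changed with them, from 2639 to 888 for EGF against WR medium in WT and from 1991 to 115 for EGF-WR against EGF medium in KO. DESeq2 called more members: 10 in WT and 5 in KO for EGF against WR medium, 9 and 15 in EGF-WR against EGF medium, and in KO 20 for EGF-WR against WR medium. With only the groups compared, 15 and 14 were called in EGF against WR medium and 4 in EGF-WR against EGF medium in KO, and without a filter 2 and 5 in EGF-WR against EGF medium in WT and KO. Without both EGF-WR libraries of batch 3, an alternative added after seeing the data, 12 and 9 were called in EGF against WR medium and 3 in EGF-WR against EGF medium in KO. Leaving out 1 library or batch gave 2 to 10, 3 to 15 and 0 to 8 members in WT and 2 to 6, 4 to 23 and 1 to 19 in KO, for EGF against WR, EGF-WR against WR and EGF-WR against EGF medium. KO against WT and the differences in response stayed at 0 members under all alternatives. For settings other than the missing block, the share of all genes called is not given here. The rises and falls are therefore not a result about the members. The cause of these shifts was not tested. Without batch 1, 28 of the 40 calls were lost, without batch 3 18 and without batch 2 3; these fits have 12 libraries. Small changes can go undetected at this depth and number of replicates: with data of the same depth and size, the test recovered fewer of the small than of the large ones.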

Other observations

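In EGF against WR medium, 8 of 44 oxidative phosphorylation genes fell and 0 rose in WT, where 6.92% of all genes fell, and the median log2 of the list was -0.15 against -0.01 for all genes. In KO 5 of the 44 fell, where 5.94% of all genes fell, with a median of -0.08. Ndufb5, a complex I subunit gene, fell by 0.28 on the log2 scale in WT. Of 20 tricarboxylic acid cycle genes, 4 fell in WT and 5 in KO, among them Idh2, the mitochondrial isocitrate dehydrogenase (log2 -0.66 ± 0.09, adjusted p = 3.94e-05 in WT, edgeR). When the Wnt factors were added to EGF, 9 of the 44 rose in WT and 10 in KO, where 6.85% and 5.17% of all genes rose, and 3 tricarboxylic acid cycle genes rose in each genotype. These comparisons share the EGF libraries.

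In the pentose phosphate pathway, which branches off after hexokinase, 1 of 10 genes rose and 3 fell in EGF against WR medium in WT. The transaldolase gene Taldo1 fell by 0.57 and the transketolase gene Tkt by 0.41 on the log2 scale. In EGF-WR against EGF medium Tkt rose by 0.54 in WT and 0.52 in KO, and H6pd, the dehydrogenase of the endoplasmic reticulum, fell by 0.85 and 0.92. Of the HIF subunit genes, Epas1 (HIF-2 alpha) fell in EGF-WR against EGF medium by 0.75 in WT and 0.58 in KO, and Hif1a by 0.31 and 0.22. Arnt2 rose by 1.33 and 1.56 in that comparison.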
